A study of Homo sapiens with 15 samples.

Results

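The 9 genes described here encode the kinase CaMKK2 with its paralogue CaMKK1, the kinase LKB1 (gene STK11), and the subunits of AMP-activated protein kinase (AMPK) that were listed in the table. They were taken by name from the 17272 genes of the RNA sequencing table, and all 9 were found: CAMKK2, CAMKK1, STK11, PRKAA1, PRKAA2, PRKAB1, PRKAB2, PRKAG1 and PRKAG2. The cells were LNCaP, a prostate cancer line of human origin that responds to androgen and carries a mutated androgen receptor, so that all libraries derive from 1 cell line. The cells had been starved of steroids in medium with charcoal-stripped serum, and all then received the synthetic androgen R1881 at 1 nM. In the control group of 10 libraries R1881 was given with DMSO and without darolutamide. In the combination group of 5 libraries darolutamide, an inhibitor of the androgen receptor, was added at 2 µM. Both groups were harvested after 22 h, and there was no group without androgen. The R1881 dose and the group sizes are those of the sample labels. The column labels name the darolutamide dose only as high, and 2 µM is the concentration in the paper's methods.

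AMPK is an energy sensor made of a catalytic alpha subunit (genes PRKAA1 and PRKAA2), a scaffolding beta subunit (PRKAB1 and PRKAB2) and a nucleotide-binding gamma subunit (PRKAG1 and PRKAG2). It is activated by phosphorylation of the alpha subunit, either by LKB1 when cellular energy is low or by CaMKK2 when calcium rises and binds calmodulin. Active AMPK restrains the synthesis of fatty acids and cholesterol and favours catabolism. In prostate cancer CAMKK2 is known as a gene whose transcription is driven by the androgen receptor.

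With darolutamide the CAMKK2 transcript stood at 47.1% of its level with R1881 alone. Of the AMPK subunits, PRKAB2 was also lower with darolutamide, while PRKAA1, PRKAA2, PRKAB1 and PRKAG2 were higher. The transcripts of CAMKK1, STK11 and PRKAG1 did not pass the test. So 2 of 9 members fell and 4 rose at an adjusted p under 0.05 (limma, adjusted over all genes), beside 23.7% of all genes lower and 22.8% higher. Since 46.6% of all genes were called in either direction, the count of members called is not in itself a result about these genes, and the size of each change is given below. When libraries were instead scaled to their totals over the listed genes, the split over all genes was 17.5% lower and 30.8% higher, and the same counts of 2 and 4 members were obtained. The median log2 fold change of the members was 0.12 and that of all genes 0.000431. In bulk RNA a lower value can come from fewer cells that express a gene or from less RNA per cell, which cannot be told apart here.

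Promoter sequence is shown for CAMKK2, which fell most among the members, and for PRKAB2, the other member that fell. Each is the 250 bases before the gene's start in RefSeq (GRCh38.p14), read 5′ to 3′ on the strand of the gene. CAMKK2 is on the minus strand (chr12:121296710-121296959) and so is PRKAB2 (chr1:147172471-147172720). The starts in GENCODE version 44 differ, at 121298308 for CAMKK2 and 147172550 for PRKAB2. By those, the whole CAMKK2 window and the part of the PRKAB2 window with the hexamer lie inside the gene. The hexamer AGAACA and its reverse complement TGTTCT, the core that androgen and glucocorticoid receptors recognise, were searched on both strands and are printed in capitals.
CAMKK2 promoter: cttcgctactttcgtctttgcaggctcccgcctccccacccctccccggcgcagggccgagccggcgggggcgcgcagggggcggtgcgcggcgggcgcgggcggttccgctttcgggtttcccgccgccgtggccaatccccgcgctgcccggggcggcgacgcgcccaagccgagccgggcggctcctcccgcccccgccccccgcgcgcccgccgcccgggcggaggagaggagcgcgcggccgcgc
PRKAB2 promoter: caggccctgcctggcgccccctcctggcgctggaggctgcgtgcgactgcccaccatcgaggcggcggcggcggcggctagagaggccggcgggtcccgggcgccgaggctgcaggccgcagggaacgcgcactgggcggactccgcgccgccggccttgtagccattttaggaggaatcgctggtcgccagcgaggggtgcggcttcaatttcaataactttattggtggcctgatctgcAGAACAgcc
No hexamer was found in the CAMKK2 window, which is 82.8% G and C with 46 CpG dinucleotides, against medians of 65.2% and 21 over 9968 promoters of the same length. The PRKAB2 window held 1 hexamer close to the start of the gene, and the window of PRKAG1, a member that did not pass the test, held 1 as well. None of the other 6 member windows held a hexamer. Over all 9968 promoters, 7.27% held at least 1.

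The longer palindrome made of AGAACA, any 3 bases and TGTTCT was searched within 50 kb on each side of the start of each member. These starts are those of GENCODE version 44. The palindrome was found near PRKAA2 and PRKAG2, both of which rose with darolutamide, and near no other member. These sequences are shown because they are the only perfect palindromes near a member, with the hexamers in capitals.
PRKAA2 intron, chr1:56655041-56655055, plus strand: AGAACAgtgTGTTCT
upstream of PRKAG2, chr7:151901569-151901583, minus strand: AGAACAttcTGTTCT
The first lies 9734 bases downstream of the PRKAA2 start and the second at position -24362 from the PRKAG2 start. Such a palindrome occurred in 253 of 13935 windows of this size (1.82%) and 566 times in the genome. A match is a run of letters, and no binding was measured.

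Reads recovered per library numbered 15830745 to 24316740 in the R1881 group and 21870398 to 25317567 in the combination group. Values are given in CPM as deposited, that is, read counts divided by a factor for each library. The androgen-induced genes chosen as a check of the treatment fell in 6 of 6 cases, with a median log2 fold change of -1.49, among them KLK3 (1588 ± 209 CPM, n = 10, to 615 ± 55.9 CPM, n = 5) and FKBP5 (1502 ± 87.4 to 152 ± 11.1 CPM). Of these 6 genes, 3 also differed between the R1881 runs described below (limma, adjusted p under 0.05), beside 3.1% of all genes. Among them was KLK3, by 0.35 on the log2 scale. All 7 luminal prostate markers were in the table, summing to 6719 to 7742 CPM with R1881 and 4249 to 4492 CPM with the combination, and 4 of them fell, 2 rose and 1 did not pass. Of 8 fibroblast markers only COL1A1, COL3A1 and LUM were listed, all 3 higher with darolutamide, with a summed level of 6.36 to 10.5 CPM in R1881 and 13.5 to 30.6 CPM in combination libraries. Of 7 endothelial and immune markers only VWF was listed, at 2.08 to 2.84 and 3.56 to 4.10 CPM. Beside these counts of check genes and markers, 23.7% of all genes were called lower and 22.8% higher. The part of these markers in the results was not tested. The 20 most abundant genes took 6.40% to 6.77% of reads with R1881 and 7.25% to 7.91% with the combination, and the 20 mitochondrial genes 2.65% to 3.02% and 3.12% to 3.94%.

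Library numbers in the labels ran from 51 to 55 and from 71 to 75 for R1881 and from 86 to 90 for the combination. No run held both treatments, so run and treatment cannot be told apart. Between the R1881 runs, 535 genes (3.1%) differed at an adjusted p under 0.05 (limma), and none of the 9 members did. At an unadjusted p under 0.05, 2 members differed (STK11 and PRKAB2) by limma and 1 (STK11) by edgeR, which called 0 of 9 after adjustment. The log2 differences of the members between the R1881 runs lay between -0.10 for PRKAB2 and 0.19 for STK11.

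Combination replicates 3 and 4 stood apart from the other combination libraries in how read number varied with the GC content of the gene. The trend of log2 deviation per 10 points of GC percent was 0.35 in replicate 4 and -0.22 in replicate 3, against -0.063 to -0.018 in the other combination libraries and -0.13 to 0.22 in R1881 libraries. In 6 of 9 members these replicates held the lowest and the highest combination value, in either order. The share of all genes for which this holds is not given here. Member values are therefore also given without combination replicates 3 and 4 and after removal of the GC trend of each library. Ratios are also given without these replicates, and the counts of the lists under both settings in the closing section.

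**Figure D1:**
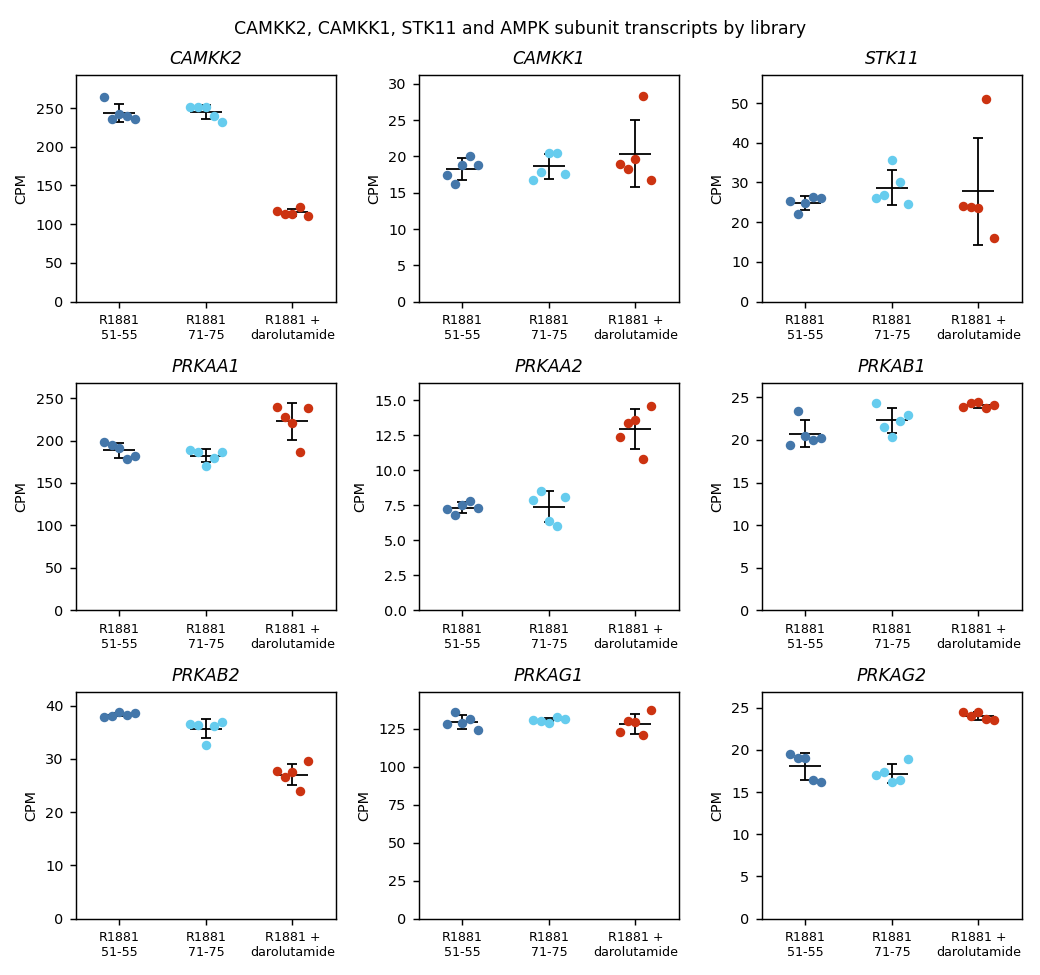
Level in CPM (vertical axis from 0) of the 9 members, 1 point per library, with R1881 libraries 51 to 55 and 71 to 75 and the R1881 + darolutamide libraries side by side; horizontal lines are means and error bars SD. CAMKK2 and PRKAB2 lie lower and PRKAA2 and PRKAG2 higher in all 5 combination libraries than in any R1881 library, while CAMKK1, STK11 and PRKAG1 overlap.

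CAMKK2 (chr12:121237675-121298308, minus strand, GENCODE version 44 on GRCh38) is the upstream kinase of the calcium arm. In the R1881 libraries its lowest, median and highest values were 231, 242 and 264 CPM. The combination libraries, replicates 1 to 5, held 114, 117, 110.1, 122 and 113 CPM. The groups were far apart, with the highest combination library below the lowest R1881 library. The means were 244 ± 9.94 CPM (SD, n = 10) and 115 ± 4.61 CPM (n = 5). The log2 fold change was -1.08 (SE 0.034, 95% interval -1.15 to -1.01, adjusted p = 2.46e-14, limma), with a lower value in 5 of 5 combination libraries than in any R1881 library. By absolute log2 fold change CAMKK2 was at the 97.0 percentile of all genes, and its rank was 302 from the largest fall. The values of the R1881 runs were alike, with means of 244 and 245 CPM. Without combination replicates 3 and 4 the combination mean was 114.6 ± 2.42 CPM (n = 3), and with the GC trend removed the log2 fold change was -1.06.

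CAMKK1 (chr17:3860315-3894891, minus strand), the paralogue with similar substrates, did not follow CAMKK2. Its R1881 values had a lowest of 16.2, a median of 18.4 and a highest of 20.5 CPM. With the combination they were 18.3, 19.0, 16.7, 28.3 and 19.6 CPM in replicates 1 to 5, so that replicate 4 stood above every other library and the remaining values fell within the R1881 range. The means were 18.4 ± 1.54 CPM and 20.4 ± 4.57 CPM, and the log2 fold change was 0.12 (SE 0.095, interval -0.08 to 0.32, adjusted p = 0.320, limma). Without replicate 4 the log2 fold change was -0.000798, and without replicates 3 and 4 it was 0.043 (adjusted p = 0.666, limma). After removal of the GC trend it was 0.16 with an adjusted p of 0.00963 (limma), past the threshold.

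STK11 (chr19:1177558-1228431, plus strand) encodes LKB1, the energy-stress kinase upstream of AMPK. Its R1881 values ranged from 22.0 over a median of 26.0 to 35.7 CPM. The combination libraries held 23.9, 24.2, 16.0, 51.1 and 23.6 CPM. Replicate 4 was thus the highest and replicate 3 the lowest of all 15 libraries, and the other combination values fell within the R1881 range. The means were 26.8 ± 3.72 and 27.8 ± 13.5 CPM, with a log2 fold change of -0.05 (SE 0.177, interval -0.42 to 0.33, adjusted p = 0.854, limma). Without replicate 4 the log2 fold change was -0.29 with an adjusted p of 0.0307 (limma), and without replicate 3 it was 0.12. Without both it was -0.15 and did not pass (adjusted p = 0.214, limma), with a combination mean of 23.9 ± 0.301 CPM (n = 3). At 66.3% GC, STK11 had the highest GC content of the members. After removal of the GC trend the SD of its log2 values over the combination libraries was 0.073 in place of 0.60, and the log2 fold change was -0.10 (adjusted p = 0.0573, limma).

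**Figure D2:**
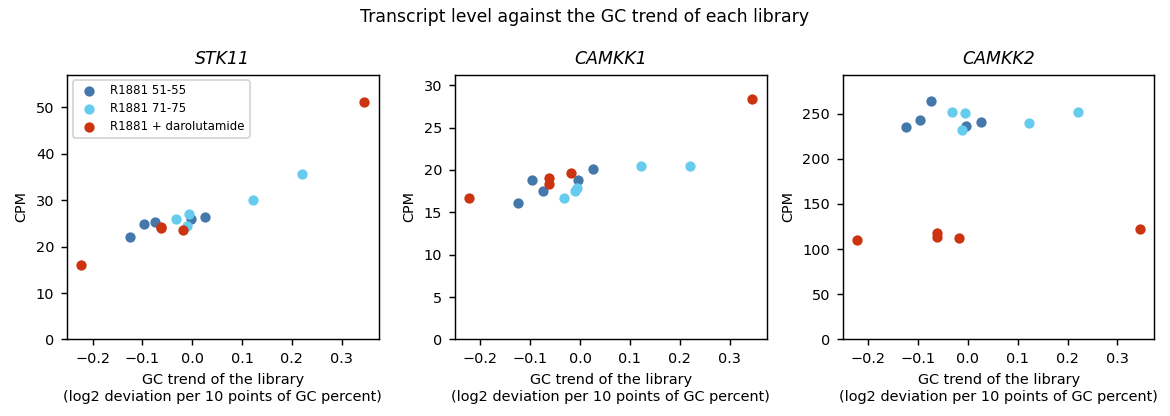
Level of STK11, CAMKK1 and CAMKK2 in CPM (vertical axes from 0) against the GC trend of each library (horizontal axis, log2 deviation per 10 points of GC percent), 1 point per library, coloured by run. The STK11 points rise from left to right through both groups, with combination replicate 3 at 16.0 and replicate 4 at 51.1 CPM at the ends. All combination points of CAMKK2 lie below all R1881 points. Combination replicates 3 (110.1 CPM of CAMKK2) and 4 (122 CPM) lie beyond the GC trends of the R1881 libraries.

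The catalytic subunit genes PRKAA1 and PRKAA2 were both higher with darolutamide. PRKAA1 (chr5:40759389-40798374, minus strand) encodes alpha1. Its R1881 values had a lowest of 169.8, a median of 187 and a highest of 198 CPM. In combination replicates 1 to 5 there were 228, 239, 239, 187 and 221 CPM, above all R1881 libraries with the exception of replicate 4, which lay at the R1881 median. The means were 185 ± 8.47 and 223 ± 21.5 CPM, with a log2 fold change of 0.26 (SE 0.051, interval 0.15 to 0.37, adjusted p = 0.000421, limma). After removal of the GC trend the groups no longer overlapped and the log2 fold change was 0.25.

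PRKAA2 (chr1:56645314-56715335, plus strand) encodes alpha2 and had the largest rise of the members. Its R1881 values were 6.04 at the lowest, 7.43 at the median and 8.53 CPM at the highest. The combination libraries held 13.4, 12.4, 14.6, 10.8 and 13.6 CPM, each above every R1881 library. The means were 7.37 ± 0.782 and 13.0 ± 1.44 CPM, so that the combination stood at 175.9% of R1881. The log2 fold change was 0.77 (SE 0.083, interval 0.60 to 0.95, adjusted p = 5.05e-07, limma), higher in 5 of 5 libraries. This low level rested on 96 to 193 reads in R1881 and 229 to 335 reads in combination libraries. The log2 fold change was 0.73 after removal of the GC trend.

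The scaffold subunit genes moved in opposite directions. PRKAB2 (chr1:147155106-147172550, minus strand), which encodes beta2, held 32.6, 37.4 and 38.7 CPM as the lowest, median and highest R1881 values. Combination replicates 1 to 5 held 26.6, 27.7, 29.6, 24.0 and 27.5 CPM, all below the R1881 libraries. The means were 37.0 ± 1.84 and 27.1 ± 2.03 CPM, with a log2 fold change of -0.45 (SE 0.050, interval -0.55 to -0.34, adjusted p = 8.34e-07, limma). Between the R1881 runs, with means of 38.3 and 35.7 CPM, the log2 difference was -0.10. The part of run in the fall with darolutamide was not tested, since no run held both treatments.

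PRKAB1 (chr12:119667864-119681624, plus strand), which encodes beta1, held 19.4, 21.0 and 24.3 CPM as the lowest, median and highest R1881 values. Under the combination, replicates 1 to 5 held 24.3, 23.9, 24.1, 23.8 and 24.4 CPM, a narrow band at the upper end of the R1881 range. The groups overlapped, since R1881 replicates reached 24.3 CPM. The means were 21.5 ± 1.67 and 24.1 ± 0.293 CPM, with a log2 fold change of 0.16 (SE 0.054, interval 0.05 to 0.28, adjusted p = 0.0180, limma). Against R1881 libraries 71 to 75 alone the log2 fold change was 0.11 and did not pass (adjusted p = 0.123, limma).

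Of the nucleotide-binding subunit genes, PRKAG2 rose and PRKAG1 did not pass the test. PRKAG2 (chr7:151556124-151877214, minus strand), which encodes gamma2, held 16.1, 17.2 and 19.5 CPM as the lowest, median and highest R1881 values. The combination libraries held 24.0, 24.5, 23.5, 23.7 and 24.5 CPM, all above the R1881 libraries and close to each other. The means were 17.6 ± 1.37 and 24.0 ± 0.439 CPM, with a log2 fold change of 0.44 (SE 0.055, interval 0.33 to 0.56, adjusted p = 3.00e-06, limma). PRKAG2 shares 99 exon bases (0.597%) with PRKAG2-AS1 on the opposite strand, which rose too (0.93 to 1.86 CPM). Whether reads were counted by strand is not given in the sources used here, so reads in that stretch may belong to either gene.

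PRKAG1 (chr12:49002274-49018807, minus strand), which encodes gamma1, held 124, 130.2 and 136 CPM as the lowest, median and highest R1881 values. Values with the combination were 130.4, 123, 137, 121 and 129 CPM, on both sides of the R1881 range. The means were 130.1 ± 3.21 and 128 ± 6.60 CPM, with a log2 fold change of -0.02 (SE 0.032, interval -0.09 to 0.05, adjusted p = 0.600, limma). The interval was the narrowest among the members that did not pass. In GENCODE version 44, 2061 of its exon bases (49.5%) are shared with another protein-coding gene on the same strand. A further overlap of 514 exon bases (12.3%) is with DDN-AS1 on the opposite strand. Neither gene was in the table, so the count of PRKAG1 is uncertain.

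In all, 4 of 9 members (CAMKK2, PRKAA2, PRKAB2 and PRKAG2) did not overlap between the groups, beside 23.4% of all genes (12.6% lower and 10.8% higher). Without combination replicates 3 and 4 (n = 3), the combination mean was 19.0 ± 0.651 CPM for CAMKK1, 229 ± 9.02 for PRKAA1 and 13.1 ± 0.627 for PRKAA2. It was 24.2 ± 0.309 CPM for PRKAB1, 27.3 ± 0.617 for PRKAB2, 127 ± 3.97 for PRKAG1 and 24.3 ± 0.292 for PRKAG2. The same 4 rises and 2 falls were counted without these replicates, beside 21.1% and 23.5% of all genes. With the GC trend removed, the log2 fold changes were 0.16 for PRKAB1, -0.43 for PRKAB2, -0.03 for PRKAG1 and 0.45 for PRKAG2. For the 4 members that did not overlap and for PRKAA1, direction and call were retained under each of the 26 alternatives tried.

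**Figure D3:**
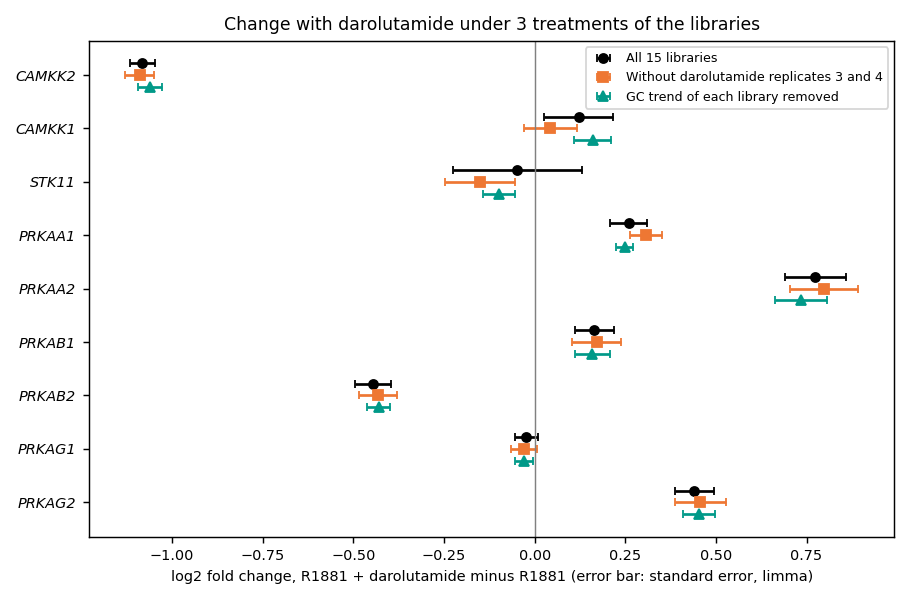
Log2 fold change of each member (R1881 + darolutamide minus R1881, horizontal axis) with all 15 libraries, without combination replicates 3 and 4, and with the GC trend of each library removed; error bars are standard errors from limma. CAMKK2 stays near -1.1 in each, PRKAA2 near 0.8, and the wide error bar of STK11 narrows when the GC trend is removed.

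The ratio of paralogues within a library does not depend on how the library was scaled, and all 4 ratios differed between the groups without overlap. Each ratio holds a member that did not overlap by itself (CAMKK2, PRKAA2, PRKAB2 or PRKAG2). The ratios and their tests below therefore largely restate those genes and add no separate support. The share of other gene pairs without overlap was not computed. CAMKK2 to CAMKK1 was 13.3 ± 1.27 with R1881 (lowest 11.7, highest 15.1) and 5.80 ± 0.888 with the combination (lowest 4.30, highest 6.58). The highest combination ratio was well below the lowest R1881 ratio. PRKAA1 to PRKAA2 was 25.4 ± 2.61 with R1881 (21.9 to 29.6) and 17.2 ± 1.21 with the combination (16.3 to 19.3). PRKAB1 to PRKAB2 went the other way, from 0.582 ± 0.056 (0.512 to 0.667) to 0.894 ± 0.066 (0.814 to 0.990). These are ratios of reads not divided by gene length, so they compare libraries and not the abundance of the paralogues. PRKAG1 to PRKAG2 was 7.42 ± 0.541 (6.55 to 8.08) and 5.34 ± 0.323 (5.02 to 5.84), with the uncertainty of the PRKAG1 count named above.

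The differences of the mean log2 ratios were -1.21, -0.55, 0.62 and -0.47 in the same order. Each had a 2-sided p of 0.000333 by an exact permutation test, the smallest that the possible assignments of 15 libraries to groups of 10 and 5 allow, and the same value after Benjamini-Hochberg adjustment over the 4 ratios. Without combination replicates 3 and 4 they were -1.14, -0.53, 0.61 and -0.50. With the controls of 1 run at a time, the log2 difference of CAMKK2 to CAMKK1 was -1.22 against libraries 51 to 55 and -1.20 against libraries 71 to 75. For PRKAB1 to PRKAB2 they were 0.73 against libraries 51 to 55 and 0.52 against libraries 71 to 75, which themselves held ratios of 0.512 to 0.616 and 0.594 to 0.667.

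**Figure D4:**
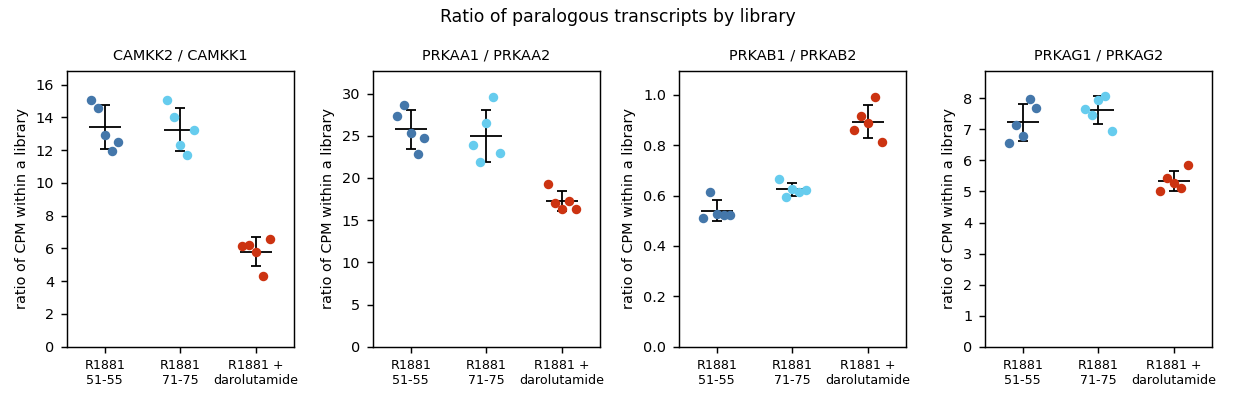
Ratio of paralogous transcripts within each library (vertical axes from 0), 1 point per library by run, with means (lines) and SD (error bars). The 5 combination libraries lie below all 10 R1881 libraries for CAMKK2 to CAMKK1, PRKAA1 to PRKAA2 and PRKAG1 to PRKAG2, and above them for PRKAB1 to PRKAB2.

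Per kilobase of exon, CAMKK2 was the most abundant member with R1881 at 34.1 ± 1.39 CPM per kb, followed by PRKAG1 at 31.2 ± 0.770 and PRKAA1 at 28.3 ± 1.29. Their ranges overlapped from one to the next, although the order held in 10 of 10 libraries. PRKAB2 followed at 6.78 ± 0.336 CPM per kb and PRKAB1 at 3.56 ± 0.276. STK11 at 3.04 ± 0.423 overlapped with both PRKAB1 and CAMKK1, the latter at 2.48 ± 0.207. PRKAG2 at 1.06 ± 0.082 and PRKAA2 at 0.787 ± 0.084 CPM per kb were the least abundant, each apart from its neighbours.

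With the combination, CAMKK2 was the third in order at 16.1 ± 0.643 CPM per kb. PRKAA1 (33.99 ± 3.28) and PRKAG1 (30.8 ± 1.58) stood above it in all 5 libraries and overlapped with each other. Lower in the order, PRKAG2 (1.45 ± 0.026) and PRKAA2 (1.39 ± 0.154) now overlapped. With the length of the longest transcript in place of all exons, PRKAG1 was the most abundant in both groups, at 77.3 ± 1.91 and 76.1 ± 3.92 CPM per kb, and CAMKK2 passed from the second place (43.7 ± 1.78) to the third (20.6 ± 0.824). Under both lengths the transcript of alpha1 exceeded that of alpha2 in every library.

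The genes around AMPK were described by 5 lists written from general knowledge, of which 59 of 64 genes were in the table. CAMK1G, CAMK4, PRKAG3, LIPE and PPARGC1A were not analysed here. Together 20 of the 59 fell, 16 rose and 23 did not pass, beside 23.7% of all genes lower and 22.8% higher. Without overlap between the groups, 11 fell and 11 rose, beside 12.6% and 10.8% of all genes. Their median log2 fold change was -0.05. Up to 3 genes per list were chosen by smallest p, and further genes named below were chosen after their values were seen. Of the 59, 5 also differed between the R1881 runs, among them CAB39L, CALM2, PFKFB2 and TXNIP.

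Of the 7 genes of the LKB1 complex and other upstream factors, 1 rose, 1 fell and 5 did not pass, beside 46.6% of all genes called in either direction, with a median log2 fold change of -0.05. CAB39L, a scaffold of the LKB1 complex, rose from 177 ± 12.03 to 201 ± 8.49 CPM (log2 fold change 0.19, adjusted p = 0.00383, limma), and was lower by 0.16 in R1881 run 71 to 75 than in run 51 to 55. LAMTOR1, which anchors the LKB1 complex at the lysosome, fell from 124 ± 7.96 to 109 ± 9.19 CPM (-0.18, adjusted p = 0.00856, limma). MAP3K7, which encodes the kinase TAK1, held 29.6 ± 1.59 and 27.0 ± 2.84 CPM and did not pass (adjusted p = 0.0685, limma). The obligate LKB1 partners STRADA and STRADB, CAB39 and AXIN1 did not pass either.

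In the calcium and calmodulin kinase arm, 6 of 10 genes fell, 1 rose and 3 did not pass, beside 23.7% of all genes lower and 22.8% higher, with a median log2 fold change of -0.15. CAMK1, a kinase that CaMKK2 phosphorylates, fell from 51.3 ± 2.48 to 36.3 ± 4.44 CPM (-0.50, adjusted p = 1.26e-06, limma). ITPR1, a calcium release channel of the endoplasmic reticulum, fell from 67.9 ± 4.59 to 49.9 ± 3.39 CPM (-0.44, adjusted p = 1.72e-06, limma). Both groups were apart for these genes. CAMK1D, a close relative of CAMK1, went the other way, from 1.64 ± 0.309 to 4.47 ± 0.560 CPM (1.22, adjusted p = 4.44e-08, limma), the largest rise in the 5 lists. CALM2, which encodes calmodulin, fell by 0.16 on the log2 scale. It also differed between the R1881 runs, lower by 0.19 in run 71 to 75 than in run 51 to 55. ITPR3 and STIM1 fell, and CALM3, ITPR2 and ORAI1 did not pass. Only 3 of the 10 genes were called lower when libraries were scaled to totals or compared with R1881 libraries 71 to 75 alone. The shares of all genes called lower were then 17.5% and 19.1%.

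Among the AMPK regulators, 4 of 9 genes rose, 4 fell and 1 (FNIP1) did not pass, beside 22.8% of all genes higher and 23.7% lower, with a median log2 fold change of -0.03. The sestrins, stress-induced proteins that act on AMPK and mTORC1, rose together. SESN1 went from 214 ± 11.1 to 406 ± 29.1 CPM (0.92, adjusted p = 1.27e-11, limma) and SESN3 from 220.3 ± 15.1 to 425 ± 35.6 CPM (0.95, adjusted p = 1.49e-10, limma). SESN2 rose by 0.38 and FLCN, which encodes folliculin, by 0.29 on the log2 scale. PPM1A, a phosphatase that acts on AMPK, fell from 125 ± 6.59 to 99.3 ± 7.07 CPM (-0.33, adjusted p = 1.53e-05, limma). FNIP2, PPM1E and PPP2CA, the last a catalytic subunit of protein phosphatase 2A, fell as well. With R1881 libraries 71 to 75 alone as controls, 1 of the 9 genes was called lower, beside 19.1% of all genes.

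LKB1 also activates kinases related to AMPK, and of these 12 genes 7 rose, 0 fell and 5 did not pass, beside 22.8% of all genes higher and 23.7% lower (30.8% and 17.5% with library totals), with a median log2 fold change of 0.32. At an unadjusted p under 0.05 limma called 1 lower (MARK2), and edgeR and DESeq2 called 0 lower after adjustment. Without combination replicates 3 and 4, or with the GC trend removed, limma called 1 of the 12 lower, beside 23.5% and 31.5% of genes. SIK2, a salt-inducible kinase, rose from 48.5 ± 2.72 to 66.4 ± 1.85 CPM (0.45, adjusted p = 8.59e-08, limma). MARK1, a kinase that acts on microtubule-associated proteins, rose from 6.55 ± 0.751 to 11.1 ± 1.09 CPM (0.72, adjusted p = 1.70e-06, limma). NUAK2 rose from 2.02 ± 0.358 to 3.99 ± 0.405 CPM (0.84, adjusted p = 3.68e-06, limma). NUAK1, SIK1, MARK3 and SNRK also rose. SIK3, MARK2, MARK4, BRSK1 and BRSK2 did not pass.

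Of 21 genes for AMPK substrates, 9 fell, 3 rose and 9 did not pass, beside 23.7% of all genes lower and 22.8% higher, with a median log2 fold change of -0.17. TBC1D1 and TBC1D4, related proteins that hold back glucose transporter traffic until phosphorylated, fell by nearly the same factor as CAMKK2. TBC1D1 went from 229 ± 8.31 to 108 ± 1.19 CPM (-1.08, adjusted p = 3.69e-15, limma) and TBC1D4 from 33.996 ± 1.94 to 15.9 ± 1.103 CPM (-1.07, adjusted p = 8.76e-12, limma). ACACA, which makes malonyl-CoA for fatty acid synthesis, fell by 0.55 on the log2 scale, while its paralogue ACACB rose by 0.29. Other falls included PFKFB2, GYS1, FOXO3, EEF2K and GBF1, and the other rises were TXNIP (1.00) and HDAC5 (0.56). TXNIP and PFKFB2 also differed between the R1881 runs. In run 71 to 75 TXNIP was higher by 0.51 and PFKFB2 lower by 0.19 than in run 51 to 55.

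**Figure D5:**
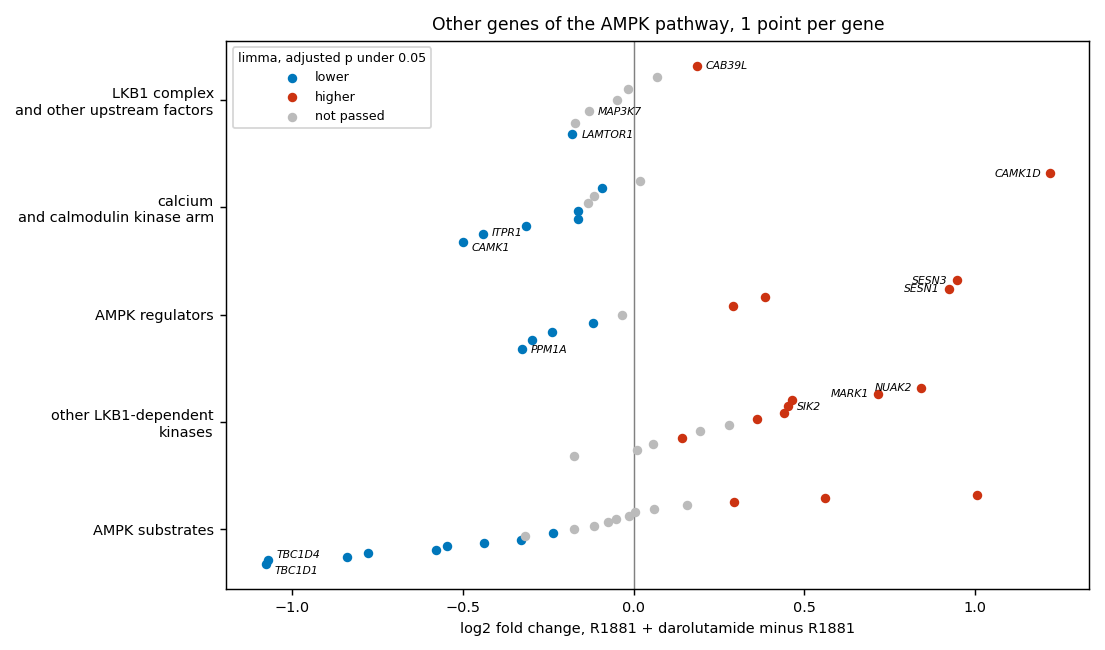
Log2 fold change (R1881 + darolutamide minus R1881, horizontal axis) of the 59 genes of 5 lists around AMPK, 1 point per gene in order of value within its list, coloured by the limma call; the labelled genes are among those with the smallest p of their list. The other LKB1-dependent kinases have 7 points called higher and 0 lower, and the AMPK substrates 9 lower and 3 higher.

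The genes whose profiles over the 15 libraries were most like that of CAMKK2 were sought among 15657 genes, by the root mean square difference of log2 values centred on each gene's mean. PDIA5, a disulfide isomerase of the endoplasmic reticulum, was the closest with a difference of 0.069 on the log2 scale. TBC1D1 (0.074), HOMER2 (0.076), GLUD2 (0.076) and PMEPA1 (0.080) followed. PDIA5 fell from 81.9 ± 1.88 to 40.0 ± 0.893 CPM, HOMER2 from 278 ± 7.13 to 124 ± 2.13 CPM, GLUD2 from 149.9 ± 7.27 to 73.4 ± 1.01 CPM and PMEPA1 from 253 ± 4.77 to 128 ± 8.29 CPM. All 5 were lower in every combination library than in any R1881 library, so the difference between the groups is part of the likeness. GLUD2 is a retrocopy of GLUD1, which was in the table too and fell from 610 ± 27.2 to 303 ± 15.4 CPM, so that reads may have been shared between these copies and the value of GLUD2 is uncertain.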

How the data were processed

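RNA was sequenced from 15 LNCaP libraries. Single-end reads of polyA RNA were aligned by the authors with STAR (GRCh38) and assigned to genes with featureCounts. The deposited values are a signal near CPM, scaled per library. Versions, gene annotation, strand setting and filter on genes are not given in the sources used here. In the paper's methods the group sizes are exchanged and the R1881 dose is higher, and the labels were followed. Libraries are biological replicates according to the paper, and p-values measure the spread between them. Dividing each library by its value of 1 read gave whole reads for 100% of values (tolerance 0.001 reads) (22177686 per library on average, with column sums of 1005403 to 1078567).

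The planned test for scaled values, limma's trend test (version 3.58.1, R 4.3.3) on log2(CPM + 0.5), was fitted on all 17272 genes with 2-sided Benjamini-Hochberg adjusted p under 0.05. It called 4098 genes lower and 3946 higher, and log2 fold changes on this scale understate the change of low genes. On the recovered reads, edgeR (4.0.16) called 3943 and 4106, and DESeq2 (1.42.0) 3792 and 4080. Scripts were tested on simulated data. Further alternatives were other pseudocounts, a minimum mean of 1 CPM, library totals, the replicate number as a block, each R1881 run alone, libraries left out, longest transcript lengths, and removal of each library's GC trend by a spline over the 13955 genes (80.8%) with a GC value in GENCODE version 44. Positions and lengths are from that version and may differ from the authors' annotation.

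The members, lists and tests were chosen with earlier results of these data known. Genes named were all 9 members, up to 3 genes of smallest p per list (some list genes are counted but not reported here by name), KLK3 and FKBP5, and the 5 profiles nearest to CAMKK2 among genes with a mean of at least 1 CPM. Protein sequences were not used here.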

Additional observations from a re-analysis of the deposited data

Results flagged for a closer look

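Values far from the rest of their group by Dixon's criterion were sought in 68 groups of values, among them those of the members and named genes. Chance alone would give about 1 in 20 if the groups were independent, but they share libraries. Such far values numbered 6. In combination replicate 4, 5 of them occurred: CAMKK1 at 28.3 CPM against 16.7 to 19.6 in the other combination libraries, STK11 at 51.1 against 16.0 to 24.2, LAMTOR1 at 125.2 against 103 to 108, CAMK1 at 44.04 against 33.5 to 35.8, and FKBP5 at 133 against 154 to 162 CPM. The sixth was PRKAB2 in R1881 replicate 6, at 32.6 CPM against 36.2 to 38.7 in the other R1881 libraries. Combination replicate 4 and R1881 replicate 6 also had the highest GC trends of their groups, 0.35 and 0.22 on the log2 scale per 10 points of GC percent, and the part of this trend in each value was not tested for single libraries.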

How the results depend on the processing

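Directions and calls of CAMKK2 (-1.10 to -1.01 on the log2 scale), PRKAA1 (0.23 to 0.33), PRKAA2 (0.73 to 0.84), PRKAB2 (-0.50 to -0.37) and PRKAG2 (0.41 to 0.51) were retained under all 26 alternatives. The cause of the following changes was not tested. STK11 changed sign to 0.022 with library totals, 0.044 with edgeR, 0.054 with DESeq2 and 0.046 against R1881 libraries 51 to 55, and with single libraries left out it ranged from -0.29 (without combination replicate 4, adjusted p = 0.0307, limma, making 3 members lower) to 0.12 (without combination replicate 3). PRKAG1 was 0.048 with library totals (adjusted p = 0.255, limma). CAMKK1 ranged from -0.000798 (without combination replicate 4) to 0.19 with single libraries left out, and passed only with the GC trend removed. With single libraries left out, 3723 to 4781 genes were called lower and 3495 to 4096 higher, 17 to 26 and 16 to 17 of the 59 listed genes, and 2 to 3 and 4 of the members. Calcium arm genes called lower went from 6 to 3 with library totals, with the replicate block and against R1881 libraries 71 to 75. The shares of all genes called lower in these settings were 17.5%, 18.3% and 19.1%. Regulators called lower went from 4 to 1 against R1881 libraries 71 to 75. Substrates called higher went from 3 to 5 with library totals, beside 30.8% of all genes. Of the 59 listed genes, 21 were called lower and 16 higher without combination replicates 3 and 4, and 26 and 17 with the GC trend removed. Genes of the LKB1 complex list called lower went from 1 to 3 under each of these settings. Without these replicates, 23.5% of all genes were called lower and 21.1% higher. With the GC trend removed, calls over the 13955 genes tested also grew, to 31.5% lower and 30% higher. Most levels per kb moved by more than 1 SD with longest transcript lengths (14 of 18).

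Replicate numbers were tried as a block. Samples of the same number correlated by -0.1393 to 0.3353 in their deviations, and only 1 of 5 combination samples was most like the control of its own number, so they share a number and no more. The block gave 3165 genes lower and 3077 higher, 2 and 3 members, and 16 and 16 listed genes, with PRKAB1 at 0.14 (adjusted p = 0.147, limma).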
